A study of Brassica oleracea var. italica with 18 samples.

Results

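The comparison asked which transcripts separated a heat-tolerant from a heat-sensitive broccoli line (Brassica oleracea var. italica) when both grew at 22 °C. The heat-tolerant group (HT22) was the inbred line B295 and the heat-sensitive group (HS22) the line BR1 op, so each side was 1 genotype. Plants of both lines grew under long days in growth chambers, and total RNA came from the shoot meristem before a head had formed. Each line had 3 single-colour arrays, which the labels call biological replicates, so the comparison took 6 of the 18 arrays of the series. The other 12 arrays were HT and HS at 15 °C and at 27 °C with 3 arrays each. They served for setting the 22 °C difference beside that at the other temperatures. They were also normalized together with the 6, and all 18 arrays shared 1 estimate of the spread behind the p-values. The methods mention 3 individual plants in the isolation of meristems, but not whether each array held 1 plant or a pool of them, so p-values measure the spread between these arrays.

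Broccoli is eaten as an arrested inflorescence: the shoot meristem has to leave vegetative growth and multiply into a head of flower bud primordia, and warmth delays or stops that change. The study describes 22 °C as a temperature at which HT can form heads and HS cannot, while both can at 15 °C. Heat shock proteins and other chaperones keep proteins folded under warmth, floral repressors and activators set the timing of the meristem's change, and salicylate, jasmonate and glucosinolates serve defence in the cabbage family.

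The array carried 43603 probes for 40632 target transcripts. It was designed for rapeseed (Brassica napus), a hybrid species that holds the B. oleracea genome beside another one, and was hybridised here with B. oleracea RNA. Probe sequences were not used here, so a lower transcript level and a weaker match of a line's transcript to the probe cannot be told apart. Between 63.9% and 67% of the probes were well above the local background on the HT22 arrays and between 65.6% and 68% on the HS22 arrays, and no probe was saturated. On every slide that held this comparison HT22 and HS22 lay at their own fixed positions, so position and line cannot be told apart. Of the markers listed for the shoot meristem, ATH1, CUC1 and ERECTA had annotated probes (3 of 8 markers, 4 probes). All 4 probes were well above background on all 6 arrays, and their log2 differences of −0.11 to 0.83 stayed below 2-fold. The leaf markers were also detected (3 of 6 markers, 4 probes, 1 called higher in HT). Of the floral markers LFY and STK had probes (2 of 7 markers, 4 probes). The 3 floral probes called higher in HT were all for STK, and LFY was not called. The remaining markers, among them the meristem genes STM and WUS, have no annotated probe here.

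At 22 °C, 1724 probes were higher in HT and 2015 were higher in HS by at least 2-fold with a Benjamini-Hochberg adjusted p under 0.05 in limma, which is 3.95% and 4.62% of all probes. A probe that passed both limits is named called here. Of the 26650 probes well above background on all 6 arrays, 1022 were called higher in HT (3.83%) and 985 higher in HS (3.7%), so among transcripts seen in both lines the counts were close. The median fold of these calls was 2.74 towards HT and 2.95 towards HS, and the largest were 725-fold and 488-fold. At 16-fold or more there remained 52 probes for HT and 63 for HS, and at 64-fold or more 15 and 10. The median log2 difference over all probes was 0.05.

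**Figure D1:**
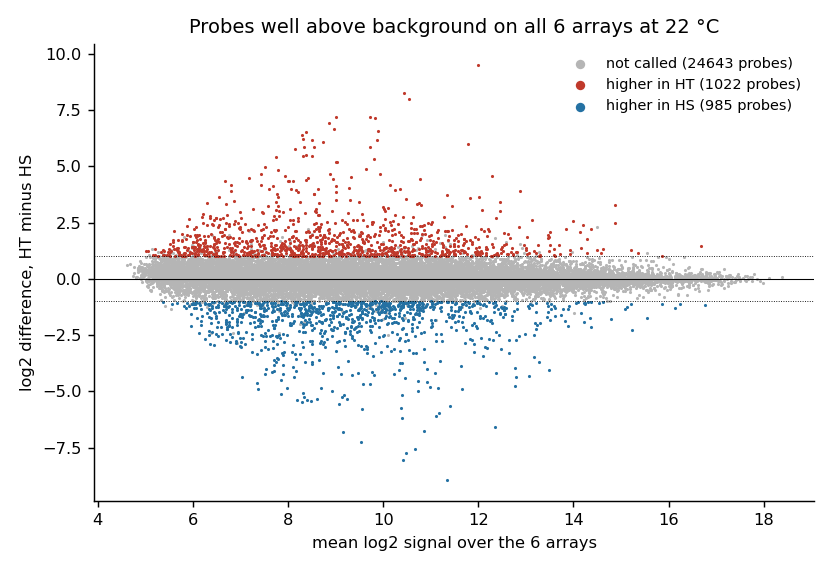
The log2 difference HT minus HS at 22 °C (vertical axis) is plotted against the mean log2 signal over the 6 arrays (horizontal axis) for the 26650 probes well above background on all of them. Red points are the 1022 probes called higher in HT, blue points the 985 called higher in HS, and dotted lines mark 2-fold.

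The spread between arrays of a line was smaller than the gap between the lines. Over these 26650 probes, 2 arrays of a line differed by a median of 0.12 to 0.22 on the log2 scale and by 2-fold or more at 0.964% to 4.11% of the probes. An HT and an HS array of the same slide differed by a median of 0.22 to 0.24 and by 2-fold or more at 9% to 9.21% of the probes. The widest gap within a line, 1094 probes at 2-fold or more, lay between HS22 replicates 2 and 3. Of the called probes, 1711 of 1724 and 2006 of 2015 differed in the called direction on all 3 slides. At 1131 of the HT calls and 1579 of the HS calls the difference was 2-fold or more on each slide. The calls were made on these same arrays, so these counts describe their spread and test nothing.

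A set of probes gave a signal in only 1 of the lines. On all 3 HT22 arrays and on no HS22 array, 234 probes were well above background, and 233 of them were called higher in HT. The reverse held for 674 probes, of which 628 were called higher in HS. Here only a bound can be given: the brighter line's mean was set against the lowest level that still counted as well above background on the dimmer line's arrays, or against the probe's own dim signal where that was higher. The median bound was 9.77-fold for the HT probes and 7.86-fold for the HS probes, and the largest bounds were 2993-fold and 1614-fold. Bounds of at least 16-fold numbered 96 for HT and 225 for HS. A further 4353 probes were well above background on only some arrays of a line, with 332 calls for HT and 337 for HS. On no array at 22 °C were 11692 probes well above background, and the 137 and 65 calls among them have no order of levels to report.

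Gene names came from copies of the study's supplementary tables, which pair probes with Arabidopsis loci, and they were lopsided. Annotation reached 2356 probes for 1728 loci, and of these 657 were called higher in HT but 50 higher in HS. The source of the names sets that ratio: of 993 probes from the table that the study compiled as enriched in HT, 646 were called higher in HT and 4 in HS. Of the 1180 probes named only in the table of co-expression modules, 1 was called higher in HT and 39 in HS. A list chosen on these arrays is not independent evidence of its own direction, so the counts of named HT genes below say which genes were on it, not that HT had more. Without a name stayed 1067 of the HT calls and 1965 of the HS calls.

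Among named genes detected in both lines, the largest difference belonged to the β-tubulin gene TUB1 (AT1G75780), a building block of microtubules. Its probe read 14.43, 14.73 and 14.49 on the HT arrays and 6.27, 6.55 and 6.09 on the HS arrays, in log2 units of normalized signal. All 3 HT arrays were far above all 3 HS arrays, a difference of 8.25 ± 0.30 (SE, limma adjusted p = 5.6e-11) or 304-fold. A probe for the chalcone and stilbene synthase family gene AT4G00040, a polyketide-forming enzyme family of flavonoid and pollen wall chemistry, read 14.35, 14.75 and 14.46 in HT and 7.02, 6.80 and 5.84 in HS. The lines were again fully separate, by 7.96 ± 0.87 (adjusted p = 1.0e-05) or 250-fold. STK (AT4G09960, SEEDSTICK), a MADS-box gene of ovule identity in Arabidopsis, read 11.80, 11.77 and 11.69 in HT and 5.59, 5.88 and 5.63 in HS. That is 66.4-fold (adjusted p = 4.2e-11), and a second STK probe of the same target differed by 5.87 on the log2 scale, while another was seen in HT only at a bound of 45.2-fold.

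Genes of photosynthesis, redox control and translation stood in the same range. PSB27 (AT1G03600), an assembly factor of photosystem II, read 13.24, 12.48 and 13.17 in HT and 6.58, 6.32 and 7.49 in HS, a 71.9-fold difference (adjusted p = 2.4e-08). Peroxiredoxin IIE (AT3G52960), a chloroplast peroxidase that removes hydrogen peroxide, read 12.72, 12.46 and 12.75 in HT against 7.11, 6.91 and 6.41 in HS, which is 57.2-fold (adjusted p = 1.1e-10). A probe for the ribosomal protein L39 gene AT4G31985 read 13.17, 13.22 and 13.12 in HT and 6.48, 6.51 and 6.84 in HS, or 94.1-fold (adjusted p = 5.5e-11). In each of these the lowest HT array lay above the highest HS array. The other named genes at the top were an RNA-recognition-motif protein (AT5G12190, 140-fold), an AP2-type DNA-binding protein (AT2G41710, 121-fold), a glycine-rich translation initiation factor (AT4G38710, 101-fold), AT3G08610 (92.1-fold), the peptidyl-prolyl isomerase AT5G19370 (84.8-fold) and the coatomer β′ subunit AT3G15980 of vesicle coats (74.9-fold). A second AT3G15980 probe, well above background on all 6 arrays, was also called higher in HT, but by only 1.46 on the log2 scale.

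**Figure D2:**
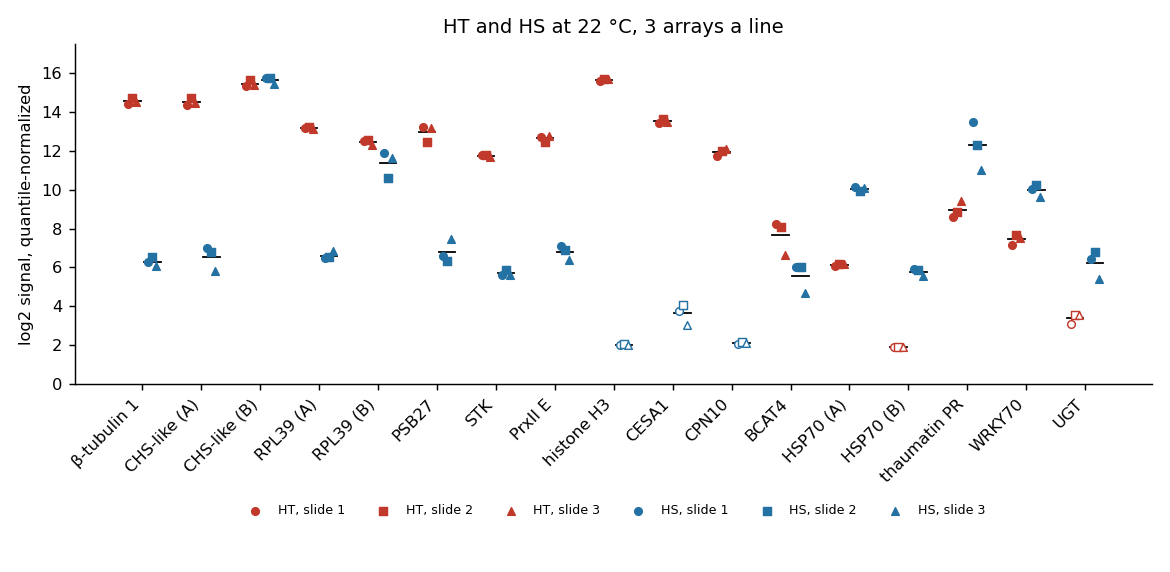
Quantile-normalized log2 signal (vertical axis) of 17 probes on the 3 HT (red) and 3 HS (blue) arrays at 22 °C, with circles, squares and triangles for slides 1, 2 and 3 and a bar for each mean. Open symbols stand for a line in which no array had the probe well above background. CHS-like is AT4G00040 and A and B are different probes of a gene; the points of both lines are far apart for CHS-like A and close together for CHS-like B.

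Probes of named genes seen only in HT were led by a histone probe. The histone H3 gene AT5G65360, whose protein packs newly made DNA, read 15.58, 15.72 and 15.67 in HT and 2.01, 2.04 and 2.02 in HS. It was at least 2993-fold higher in HT (adjusted p = 2.7e-07), and a second probe at least 968-fold. CESA1 (AT4G32410), a catalytic subunit of the cellulose synthase of growing cell walls, read 13.45, 13.62 and 13.49 in HT and 3.77, 4.07 and 3.06 in HS, at least 681-fold higher in HT (adjusted p = 1.2e-08). CPN10 (AT1G14980), the mitochondrial co-chaperonin that works with HSP60, read 11.76, 11.98 and 12.08 in HT and 2.04, 2.18 and 2.09 in HS, at least 227-fold higher (adjusted p = 7.3e-10). The HT arrays sat in the upper part of the measured range and none of the HS arrays left the background. Bounds between 485-fold and 1011-fold were found for the RNA-recognition-motif gene AT3G09160 (1011), AT5G19370 (878), the replication protein A3-like gene AT4G18590 (871), the mitochondrial acyl carrier protein AT2G44620 (626), the plasmodesmal callose-binding gene AT3G58100 (551) and the mRNA capping enzyme AT3G09100 (485).

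Fewer genes with a name were higher in HS, and the differences were smaller. The heat shock protein gene HSP70 (AT3G12580), a cytosolic chaperone that heat induces in Arabidopsis, read 6.05, 6.20 and 6.16 in HT and 10.14, 9.94 and 10.09 in HS. Each HS array was above each HT array, by 15.1-fold on average (log2 difference −3.92 ± 0.63, adjusted p = 0.00037). The 2 other HSP70 probes were called in the same direction. One, well above background on 2 of the 3 HT arrays, differed by −2.27 (adjusted p = 0.0047), and by −1.35 with normexp background correction. The other was seen only in HS at a bound of 2.44-fold, and lost its call with normexp (−0.83, adjusted p = 0.15). AT5G11500, a protein of unknown function, was 13.3-fold higher in HS at 1 probe (adjusted p = 6.6e-12), while another differed by 0.78 towards HT, below 2-fold. PDR3 (AT2G29940), an ABC transporter of the pleiotropic drug resistance family, was 6.52-fold higher in HS at 1 probe and not called at another (−0.37). WRKY70 (AT3G56400), a transcription factor that in Arabidopsis favours salicylate over jasmonate responses, read 7.15, 7.69 and 7.50 in HT and 10.05, 10.23 and 9.62 in HS, a 5.73-fold difference (adjusted p = 0.0015). Its other probe differed by −0.93 (adjusted p = 0.065) and was not called.

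The thaumatin-family pathogenesis-related gene AT1G75050 read 8.60, 8.88 and 9.41 in HT and 13.48, 12.31 and 11.04 in HS. The HS arrays were all higher but spread over more than 2 log2 units, and the mean difference was 9.94-fold (log2 −3.31, adjusted p = 0.0079), or −2.71 without HS22 replicate 1 and −3.93 without HS22 replicate 3. In the paired fit of the 6 arrays the adjusted p was 0.084. The other named genes higher in HS were AT3G10020 of unknown function (5.53-fold), a NOL1/NOP2/sun-family gene (AT3G13180, 5.28-fold), the oxygenases AT1G14120 (3.86-fold) and AT5G59540 (3.07-fold), a bZIP transcription factor (AT1G06070, 3.48-fold) and PUX3 (AT4G22150, 3.09-fold), a partner of the protein-unfolding ATPase CDC48. With normexp the AT3G13180 probe differed by −1.42 on the log2 scale, and a second probe of its target was not called (−0.89). Other PUX3 probes differed by −1.36 and −1.30, both called, and by 0.18, not called. AT1G12100 had a log2 difference of −1.69, which was no longer called without HT22 replicate 3 (−1.43, adjusted p = 0.056) or without HS22 replicate 2 (−1.26, adjusted p = 0.060).

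Only 3 named genes had a probe seen in HS alone, and each had another probe well above background on all 6 arrays. Beside HSP70 these were the RNA-binding protein gene AT4G10610 and the UDP-glycosyltransferase AT3G11340. AT4G10610 had a bound of 1.69-fold at 1 probe, which lost its call with normexp (−0.68), and no call at 2 others (−0.60 and −0.01). The AT3G11340 probe read 3.10, 3.56 and 3.58 in HT and 6.45, 6.78 and 5.39 in HS. It was at least 3.28-fold higher in HS (adjusted p = 0.031). With normexp its difference was −0.95 and not called (adjusted p = 0.25). Its call ended on leaving out any array but HS22 replicate 3, with log2 differences of −2.50 to −2.87 and adjusted p between 0.065 and 0.10 (−2.63 without HT22 replicate 1, −2.86 without HT22 replicate 2, −2.87 without HT22 replicate 3, −2.67 without HS22 replicate 1, −2.50 without HS22 replicate 2). A second probe of the gene had a log2 difference of −2.85 (adjusted p = 0.063).

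Among probes detected in both lines, the most extreme on either side had no locus. In HT this was probe A_46_P137034, which the array's own description ties to an ascorbate peroxidase of B. oleracea, at 16.66, 16.88 and 16.70 in HT and 7.61, 7.47 and 6.66 in HS (725-fold). In HS it was probe A_46_P355305, at 6.87, 7.01 and 6.77 in HT and 15.89, 15.88 and 15.67 in HS (488-fold), followed by probes at 265-fold and 212-fold. Among probes seen in 1 line, A_46_P063941 was at least 1708-fold higher in HT. A_46_P097156, at 3.24, 3.18 and 2.28 in HT and 15.05, 15.00 and 15.39 in HS, was at least 1614-fold higher in HS. The largest HS differences were thus smaller than the largest HT ones, and lay outside the named genes.

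The lists of gene groups, chosen with earlier results of these data known, held 343 annotated probes for 239 loci in 11 groups. Of these probes 104 were called higher in HT and 11 higher in HS, with a median log2 difference of 0.28 against 0.05 over all probes, of which 3.95% were called higher in HT and 4.62% higher in HS. Those shares of all probes stand beside every group count that follows. All 104 HT calls lay among the 175 probes that came from the study's HT-enriched table, which was compiled on these arrays. Among the 168 probes from other sources limma called 0 higher in HT (12 at an unadjusted p under 0.05) and 9 higher in HS (47 at an unadjusted p under 0.05), and their median was −0.21. Those 168 are what remained once the probes listed as enriched in HT were set aside. Their counts and median are therefore no independent check of direction either. The counts by group below carry that limit.

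**Figure D3:**
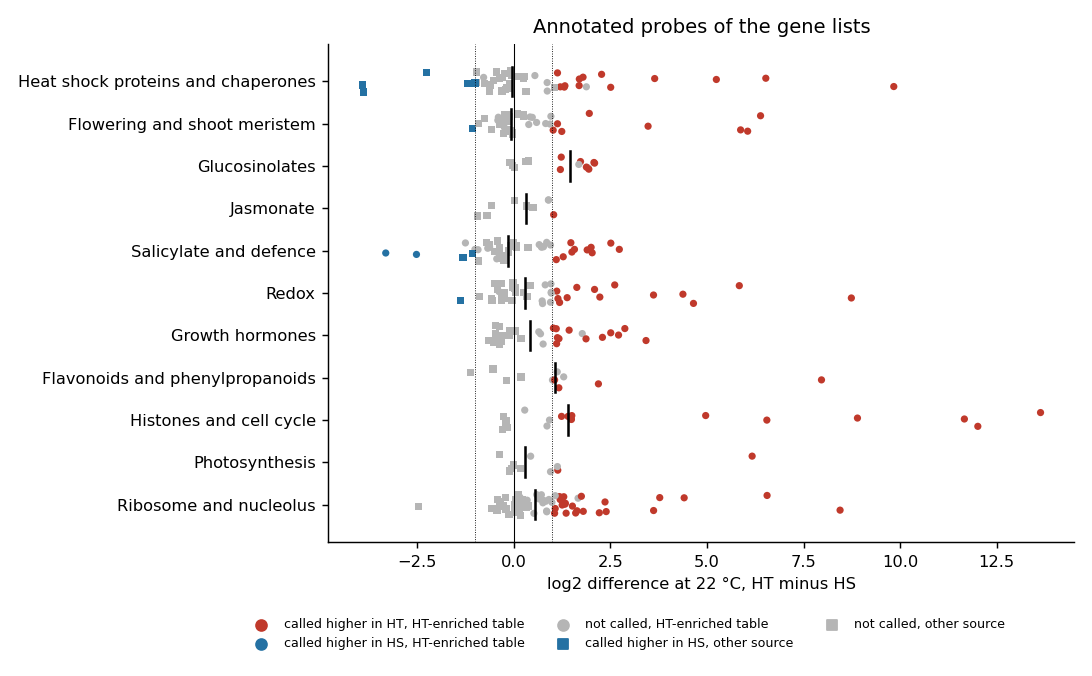
Log2 difference HT minus HS at 22 °C (horizontal axis) of the 343 annotated probes by gene group. Circles came from the study's HT-enriched table and squares from other sources, red and blue are calls, grey is not called, and black bars are group medians. Probes seen in 1 line only are drawn at their measured difference, which is no bound. No square is red.

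Heat shock proteins and chaperones split by class, and so did the source of their names. Of 47 probes, 13 were called higher in HT and 5 higher in HS (median −0.06). All 3 calls among the 6 probes for HSP70 and HSP100 were the HSP70 probes higher in HS, named outside the HT-enriched table. Names outside it came from the co-expression modules or from another probe of the same target. The study had filtered the module probes by HT against HS on these same arrays. The split by class therefore cannot be told apart from the source of the names. The small heat shock proteins, which hold unfolding proteins in solution, had 2 calls each way among 20 probes. HSP17.6A (AT5G12030) read 9.37, 9.64 and 9.28 in HT and 10.79, 10.44 and 10.61 in HS, a log2 difference of −1.18 (adjusted p = 0.00069), but its other probe differed by −0.09 (adjusted p = 0.94). HSP17.6II (AT5G12020) differed by −1.01 and lost its call without HT22 replicate 1 (−0.91), HS22 replicate 1 (−0.95) or HS22 replicate 3 (−0.93), and its other probe was not called (−0.97, adjusted p = 0.086). On the HT side stood 1 probe of the peroxisomal AT5G37670 (well above background on 1 HS array, adjusted p = 0.054 in the paired fit of the 6 arrays), whose other probe of that target was below background in both lines, and BOBBER1 (AT5G53400, 1.31).

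The chaperonins, which fold proteins inside a ring-shaped chamber, had 6 of 7 probes called higher in HT (median 1.69). Beside CPN10 these were HSP60 (AT3G23990) with 1.32 and 1.69 on the log2 scale, and the subunits of the cytosolic complex AT3G20050 (1.79, and 0.27 at a probe not called) and AT5G20890 (1.13). The DnaJ co-chaperones, which hand clients to HSP70, had 5 of 14 probes called higher in HT and 9 not called. Among them AT5G22060 read 11.71, 11.80 and 11.66 in HT and 9.56, 9.69 and 9.10 in HS, a difference of 2.27 (adjusted p = 4.7e-09). AT3G06778 was seen in HT only at a bound of 22.1-fold. All of the called chaperonin and DnaJ probes came from the HT-enriched table.

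Of 40 probes for flowering and the shoot meristem, 8 were called higher in HT and 1 higher in HS, with a median of −0.06. After the 3 STK probes, FY (AT5G13480), an RNA-processing factor of the autonomous flowering pathway in Arabidopsis, read 11.27, 11.38 and 11.43 in HT and 9.49, 9.52 and 9.20 in HS, a difference of 1.95 (adjusted p = 7.3e-10). The kinase gene AT5G26751 was higher by 1.24. COL9 (AT3G07650), which delays flowering in Arabidopsis, was higher in HT by 1.02, below 2-fold without HT22 replicate 3 (0.90) or HS22 replicate 1 (0.96). NF-YB2 (AT5G47640), a promoter of flowering in long days, was higher by 1.13, and by 0.97 without HT22 replicate 1. The MADS-box gene AGL79 (AT3G30260) was the 1 member higher in HS (−1.06, and −0.98 without HT22 replicate 1). With normexp its difference was −0.57, below 2-fold. LFY, which turns a meristem floral, differed by −0.14 and was not called.

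The growth regulator gene AN3 (AT5G28640, also GIF1), a co-activator of leaf and meristem cell division, was called at 1 of its 3 probes. The others, well above background on all 6 arrays, had the opposite sign and were not called (−0.92, adjusted p = 0.086, and −0.75, adjusted p = 0.23). The called probe, well above background on 2 of the 3 HS arrays, read 10.26, 10.63 and 10.25 in HT but 9.09, 3.34 and 8.28 in HS. The difference of 3.48 (adjusted p = 0.026) was 1.70 without the low HS22 replicate 2 (adjusted p = 0.0032), 4.57 without HS22 replicate 1 and 4.17 without HS22 replicate 3. Its call ended without HT22 replicate 1 (adjusted p = 0.061), replicate 2 (0.072) or replicate 3 (0.058), and in the paired fit of the 6 arrays (0.24). The same HS22 array was low for cycloartenol synthase CAS1 (AT2G07050), a sterol enzyme, at 7.97, 4.35 and 8.07 in HS and 9.18, 9.64 and 9.11 in HT. The difference there was 2.51, and 1.28 without HS22 replicate 2 (adjusted p = 0.0075), 3.10 without HS22 replicate 1 and 3.15 without HS22 replicate 3, with an adjusted p of 0.052 without HT22 replicate 1 and 0.072 without HT22 replicate 2, and of 0.24 in the paired fit of the 6 arrays.

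Glucosinolate synthesis was represented by few genes, and the calls came from BCAT4 (AT3G19710), which starts the chain elongation of methionine, and CYP83A1 (AT4G13770), which acts on the aldoximes made later. One BCAT4 probe read 8.23, 8.11 and 6.66 in HT and 6.03, 6.03 and 4.67 in HS. On slide 3 both lines were lower than on the other slides, and the line difference of 2.09 (adjusted p = 0.0056) was similar on all 3 slides. With normexp the difference at this probe was 1.22. Its adjusted p was 0.082 in the limma fit of the 6 arrays without pairing. In the t-test named in the study's methods it was 0.16 after adjustment. The 3 other BCAT4 probes differed by 1.73, 1.88 and 1.94 (adjusted p = 0.016, 0.035 and 0.016) and each lost its call without HT22 replicate 1, HT22 replicate 2 or HS22 replicate 3, where the differences were 1.46, 1.47 and 1.36 for the first, 1.66, 1.68 and 1.59 for the second and 1.64, 1.66 and 1.43 for the last. The second also lost it without HS22 replicate 1 (2.05) or HS22 replicate 2 (2.01). No BCAT4 probe was called in the fit of the 6 arrays without pairing or in the t-test. With the authors' processed values the limma adjusted p was 0.064 for this second probe and 0.062 for CYP83A1. The CYP83A1 difference was 2.08 (adjusted p = 0.044), and the call ended on leaving out any array but HT22 replicate 3 (1.67 without HT22 replicate 1, 2.08 without HT22 replicate 2, 2.23, 2.32 and 1.67 without HS22 replicates 1, 2 and 3, adjusted p = 0.057 to 0.16). ESP (AT1G54040), which steers glucosinolate breakdown to nitriles, had probes at 1.21 and 1.23, both below 2-fold without HS22 replicate 2 (0.96 and 0.95), not called in the paired fit of the 6 arrays (adjusted p = 0.055 and 0.077), and beside an uncalled probe at 1.68 (adjusted p = 0.065). With normexp the ESP probe at 1.21 fell to 0.65, below 2-fold.

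Of 9 jasmonate probes, 1 was called, for the methyl esterase gene AT3G50440 at 1.03, and it fell below 2-fold without HT22 replicate 1 (0.89), HS22 replicate 1 (0.98) or HS22 replicate 2 (0.76). In the paired fit of the 6 arrays its adjusted p was 0.12. Of 45 salicylate and defence probes, 10 were called higher in HT and 4 higher in HS (median −0.14). Next to WRKY70 and the thaumatin-family gene, the lipid transfer protein gene AT3G08770 was higher in HS at 2 of its 6 probes. One of them read 13.43, 12.37 and 13.06 in HT and 14.36, 14.12 and 14.31 in HS, a difference of −1.31 (adjusted p = 0.0033). The other differed by −1.07, and by −0.83 without HT22 replicate 2. The 4 probes not called differed by −0.91, −0.14, 0.07 and 0.08. PR1 (AT2G14610), the usual marker of salicylate signalling, differed by −0.44 (adjusted p = 0.75).

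The defence genes higher in HT included BSMT1 (AT3G11480), which methylates salicylate and benzoate, at 7.19, 6.34 and 6.53 in HT and 3.81, 3.35 and 4.71 in HS. It was well above background on 1 of the 3 HS arrays, so the size of the difference, 2.73 (adjusted p = 0.0031), depends on signals near background, and it was 1.01 with normexp background correction. LSD1 (AT4G20380), a negative regulator of cell death in Arabidopsis, was higher by 1.48 at 1 probe and not called at another (0.66), the thaumatin-family gene AT1G75800 by 2.03 at 1 probe and not called at another (−0.38), and the resistance-type genes AT5G22690 and AT1G12280 by 1.57 and 1.28. With normexp AT1G12280 fell to 0.68, below 2-fold. A chitinase-family gene (AT4G19810) differed by 2.00 (adjusted p = 0.039), but its call did not hold without any 1 of the 6 arrays (adjusted p = 0.054 to 0.12).

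Among redox genes, the small electron carriers held most calls. Of 20 probes for thioredoxins, ferredoxins and glutaredoxins 10 were called higher in HT and 10 were not called (median 1.04), and all of the calls came from the HT-enriched table. The chloroplast thioredoxin x (AT1G50320) read 11.41, 10.58 and 11.01 in HT and 2.23, 2.35 and 2.21 in HS, seen in HT only at a bound of 119-fold. Thioredoxin h3 (AT5G42980) was higher by 4.65, glutaredoxin S17 (AT4G04950) by 3.62 and thioredoxin m1 (AT1G03680) by 2.61. The glutathione transferases, which attach glutathione to toxic compounds, went both ways. GSTU25 (AT1G17180) read 10.68, 10.71 and 10.32 in HT and 6.22, 6.17 and 6.17 in HS, a difference of 4.38 (adjusted p = 5.9e-13). GSTF10 (AT2G30870) differed by −1.38 (adjusted p = 0.020), a call lost without HT22 replicate 3 (−1.29) or HS22 replicate 3 (−1.17), and in the paired fit of the 6 arrays (adjusted p = 0.057).

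Of 32 probes for growth hormones, 12 were called higher in HT and 20 were not called. For cytokinin these were ARR4 (AT1G10470), a response regulator, at 2.88, SOB5 (AT5G08150) at 3.42 (well above background on 2 of the 3 HS arrays, and 1.87 with normexp) and the cyclin gene CYCD3;2 (AT5G67260) at 1.17. For gibberellin, ent-kaurene oxidase (AT5G25900), an early step of synthesis, read 9.40, 9.43 and 9.89 in HT and 6.78, 6.85 and 6.94 in HS, a difference of 2.71 (adjusted p = 5.4e-08). A second ent-kaurene oxidase probe differed by −0.33. ABI5 (AT2G36270), a transcription factor of abscisic acid responses, was higher by 1.11, and the ethylene response factor gene AT4G34410 by 1.87.

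Histone and cell cycle probes were called higher in HT at 11 of 19 (median 1.41), all from the HT-enriched table. Beyond AT5G65360, the histone H3 gene AT1G75600 read 10.04, 10.05 and 9.88 in HT and 5.19, 5.08 and 4.80 in HS, a difference of 4.97 (adjusted p = 7.0e-13). Cyclin B2;3 (AT1G20610), which drives entry into mitosis, was higher by 1.48 (adjusted p = 0.058 in the paired fit of the 6 arrays), the DNA polymerase δ subunit POLD2 (AT2G42120) by 1.49 and the replication factor C subunit AT5G22010 by 1.41. Of 72 ribosome and nucleolus probes, 23 were called higher in HT (median 0.56). The ribosomal protein L31 gene AT2G19740 read 13.91, 13.67 and 13.90 in HT and 10.40, 10.41 and 9.82 in HS, a difference of 3.62 (adjusted p = 8.1e-11). The remaining 46 of 68 ribosomal protein probes were not called. Of 10 photosynthesis probes 2 were called, for PSB27 and the photosystem I subunit PSAE1 (1.14, a call lost by falling just below 2-fold without HS22 replicate 2), and of 11 flavonoid probes 4.

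Several probes may cover 1 transcript, which gives a second reading of the same difference. The array holds 3551 pairs of probes for the same target. In 2479 of them both probes were well above background on all 6 arrays, and their line differences had a Pearson r of 0.64 and a Spearman rho of 0.73 across pairs, which are not replicates. At least 1 probe was called higher in HT in 100 of these pairs, and both in 39 (39%). For HS the counts were 112 and 35 (31.2%). No pair was called in opposite directions in limma, though 49 pairs had opposite signs with an unadjusted p under 0.05 at each probe.

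Some of the largest differences were seen by only 1 probe of a pair, or by only some probes of a gene. AT4G00040 is an example, with probes for different targets of the gene. Beside the 250-fold probe, a probe of another target read 15.31, 15.63 and 15.39 in HT and 15.73, 15.74 and 15.44 in HS. Its difference was −0.19 (adjusted p = 0.46). The second probe of that other target was called higher in HT (2.19, adjusted p = 1.3e-05). For RPL39 a probe of another target read 12.52, 12.57 and 12.30 in HT and 11.92, 10.61 and 11.65 in HS. It differed by 1.07 (adjusted p = 0.28). For the mRNA capping enzyme AT3G09100, seen in HT only at 1 probe, a probe of another target differed by 0.05 (adjusted p = 0.91). For AT3G08610 the probes of 1 target differed by 6.52 and 0.78, and for an unnamed target by 5.96 (A_46_P134909) and −0.08 (A_46_P252969). On the HS side an unnamed pair differed by −5.24 (A_46_P077161) and −0.47 (A_46_P171094). Where a probe seen only in HT had a partner detected on all 6 arrays (13 pairs), the partner was called higher in HT in 6 and not called in 7. For probes seen only in HS (41 pairs) the counts were 22 and 19. Of the 426 loci with at least 2 annotated probes, 61 had all probes called higher in HT, 3 had all called higher in HS, 110 had called beside uncalled probes and 252 had no call. No locus had probes called in opposite directions in limma (17 had opposite signs with an unadjusted p under 0.05 at both).

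**Figure D4:**
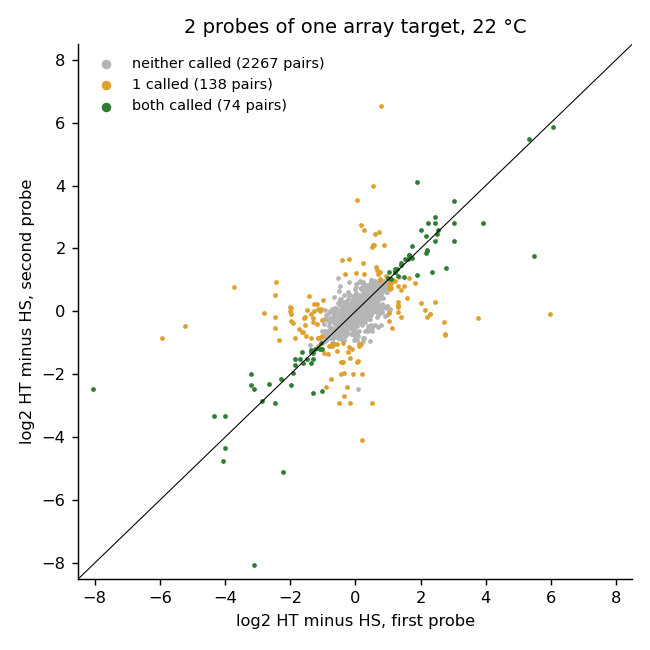
Log2 difference HT minus HS at 22 °C of the first probe (horizontal axis) and the second probe (vertical axis) of 2479 pairs for the same array target, both probes well above background on all 6 arrays. Green pairs have both probes called (74), orange pairs 1 (138) and grey pairs neither (2267); orange points along the axes are targets at which 1 probe separated the lines and the other did not.

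Most of the 22 °C differences were also present at the other temperatures, measured on other arrays of the lines. Of the 1724 probes higher in HT at 22 °C, 1231 (71.4%) were called in that direction at 15 °C, where 4.19% of all probes were, and 1251 (72.6%) at 27 °C, where 3.85% were. Of the 2015 probes higher in HS, 1628 (80.8%) were called likewise at 15 °C (4.54% of all probes) and 1671 (82.9%) at 27 °C (4.58%). Both other temperatures shared 1051 of the HT calls and 1478 of the HS calls, and 293 (17%) and 194 (9.63%) were called at 22 °C but at neither. Across the 26650 probes detected on all 6 arrays, the 22 °C difference had an r of 0.90 and a rho of 0.81 with that at 15 °C, and an r of 0.95 and a rho of 0.90 with that at 27 °C. These are correlations across probes, which are not replicates, and the 22 °C and 27 °C arrays shared slides while the 15 °C arrays were on others.

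Of the 234 probes seen only in HT at 22 °C, 147 (62.8%) were well above background on no HS array at any of the 3 temperatures. For the 674 seen only in HS, 433 (64.2%) were on no HT array. These probes were chosen for lacking a signal on the other line's 22 °C arrays. The share among all probes that lacked one there was not counted, so these percentages have no reference value. The brightest histone H3 probe was well above background on 1 HS array at 15 °C and on none at 27 °C, where the HS means were 4.27 and 2.09 and the HT means 15.33 and 15.59.

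**Figure D5:**
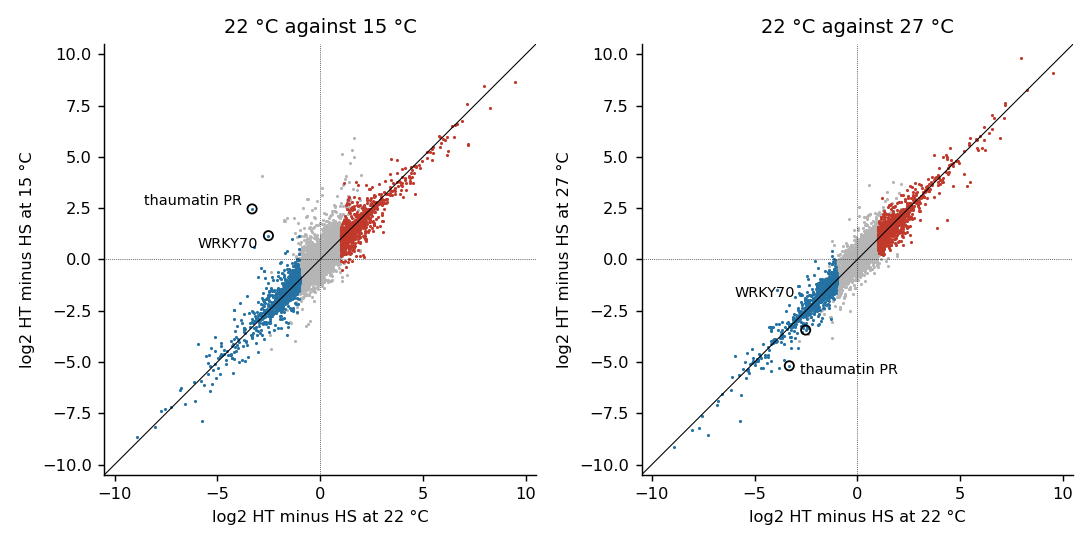
Log2 difference HT minus HS at 22 °C (horizontal axes) against that at 15 °C (left, vertical axis) and at 27 °C (right, vertical axis), for the probes well above background on all 6 arrays at 22 °C. Red and blue are the probes called higher in HT and in HS at 22 °C, the diagonal marks equal differences, and the circled probes are the thaumatin-family gene AT1G75050 and WRKY70, which lie above 0 at 15 °C.

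A test of the change itself called few probes. The line difference at 22 °C differed from that at 15 °C at 15 of 43603 probes (0.0344%) and from that at 27 °C at 2 (0.00459%), counted at an adjusted p under 0.05 whatever the size of the change. The named genes among the 15 were AT5G59530, an oxygenase-family gene, with a difference of −1.05 at 22 °C and 0.29 at 15 °C (change −1.34, adjusted p = 0.041), the transporter-type gene AT1G80530 with 0.52 and 1.43 (change −0.92, adjusted p = 0.038), and AT5G47920 of unknown function with 1.67 and 0.55 (change 1.12, adjusted p = 0.044). These calls depend on single arrays: AT5G59530 lost its call on leaving out any array but HS22 replicate 3, and without HT22 replicate 1 all 3 genes had an adjusted p of 0.12. The 2 probes that differed from 27 °C had no name and were seen in HS only at 22 °C.

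Opposite calls were rare. No probe higher in HT at 22 °C was called higher in HS at 15 °C or 27 °C in limma (0 also at an unadjusted p under 0.05). Of the probes higher in HS at 22 °C, 5 were called higher in HT at 15 °C and none at 27 °C (10 and 1 had the opposite sign with an unadjusted p under 0.05). Among the 5 were the thaumatin-family gene AT1G75050, with a log2 difference of −3.31 at 22 °C, 2.46 at 15 °C and −5.19 at 27 °C, and the UDP-glycosyltransferase AT3G11340, the latter at 3.17 at 15 °C and −3.05 at 27 °C. BBX32 (AT3G21150), a B-box protein, differed by −1.04 at 22 °C (adjusted p = 0.048) and 1.14 at 15 °C, and 2 further probes had no name. The 22 °C call of BBX32 ended without HT22 replicate 2 (−1.06) or 3 (−0.81) and without HS22 replicate 1 (−1.03) or 2 (−0.89), with adjusted p between 0.090 and 0.17. For none of the 5 did the change between 22 °C and 15 °C pass the test (adjusted p = 0.092 to 0.19). WRKY70 had a like pattern, −2.52 at 22 °C, 1.16 at 15 °C and −3.44 at 27 °C, and its change was not called either (adjusted p = 0.092). The HSP70 probes had smaller differences at the other temperatures. These were −2.12 at 15 °C and −1.49 at 27 °C for the first, and −1.87 and −1.30 for the next. The probe seen only in HS at 22 °C had −0.18 and −1.37. At 15 °C the first and the next were also called higher in HS (adjusted p = 0.027 and 0.015), and the last was not (0.90). The values at 27 °C did not pass the test (adjusted p = 0.13, 0.091 and 0.051). No HSP70 probe was among those whose change between temperatures was called.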

How the data were processed

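The authors deposited 1 scanner file per array, from which the background-corrected spot intensity was read, and a table of processed log2 values that the authors made from the same arrays, used only as an alternative. The members and the gene lists were chosen with earlier results of these data known. Control spots were left out, intensities of a probe were averaged on the log2 scale, and the 18 arrays were quantile-normalized together (R 4.3.3, limma 3.58.1, Python 3.11.15). A linear model with 1 mean for each line and temperature (12 residual degrees of freedom) gave moderated tests, adjusted by Benjamini-Hochberg over all 43603 probes; 3 against 3 arrays in an exact test could not go below 0.1. This main model had no term for slide or replicate, so it did not pair the arrays. The steps were tested on simulated data. Per the file headers, the HT22 and HS22 arrays with the same replicate number share a slide, and their deviations from the group means correlated at 0.104, 0.388 and 0.350, so the numbers pair the arrays. Named genes were the annotated calls with the largest differences or bounds (12 and 8 a direction, 1 probe a locus), the 3 largest without annotation, called list members, and the 6 annotated probes with the smallest p in each contrast between temperatures. Further genes were named after their values were seen: BBX32 (AT3G21150), LFY, PR1 and the pairs of probes that differed most. The annotation columns came from incomplete copies of the study's tables, and columns of the authors' own comparisons (fold changes and module statistics) were not used. The number of arrays limits the precision. Alternatives covered normalization, background, the low-signal filter, slide and replicate blocks, the arrays fitted, the methods' t-test, the thresholds and leaving out each array.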

Additional observations from a re-analysis of the deposited data

Results flagged for a closer look

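The line difference at 22 °C differed from that at another temperature, by the test of the difference itself, at 17 probes, which are given as log2 values of the 22 °C difference less the other. Against 15 °C the named probes were AT1G80530 at −0.92, AT5G59530 at −1.34 and AT5G47920 at 1.12. A_46_P151314, whose array description ties it to an Arabidopsis protein entry, had the same sign at 7.18 in log2 at 22 °C and 5.56 at 15 °C, a change of 1.62. Among probes without a name the 22 °C difference was shifted in the direction of HT by 1.35 (A_46_P160434), 1.19 (A_46_P249164), 1.06 (A_46_P285988) and 1.11 (A_46_P329330). It was shifted in the direction of HS by −2.55 (A_46_P026796), −4.04 (A_46_P092606), −1.73 (A_46_P227569), −1.48 (A_46_P232754), −1.87 (A_46_P306050), −0.71 (A_46_P330435) and −4.00 (A_46_P382438). The direction of a shift does not say which line was higher. At 22 °C A_46_P160434 and A_46_P329330 were higher in HS (log2 difference −3.09 and −4.21), and A_46_P232754 was higher in HT. A_46_P092606 and A_46_P382438 were seen only in HS at 22 °C, at bounds of 2.09-fold and 2.02-fold, and had differences of 0.79 and 0.64 at 15 °C. A_46_P026796 was below background in both lines at 22 °C. Of the 15 calls, 10 were lost without HT22 replicate 1, 10 without HT22 replicate 2, 6 without HT22 replicate 3, 8 without HS22 replicate 1, 7 without HS22 replicate 2 and 3 without HS22 replicate 3. Against 27 °C the changes were 2.01 (A_46_P080911) and 1.22 (A_46_P366885), both for probes higher in HS at each temperature and further apart at 27 °C, and 1 of these calls was lost without HT22 replicate 1.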

How the results depend on the processing

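No probe called at 22 °C was called the other way under any alternative run. With normexp background correction 944 probes were higher in HT, 918 of them among the 1724, and 1344 higher in HS. Without the minimum fold the counts were 4776 and 4097. Scaling to the 75th percentile or using the authors' processed values gave 1410 and 1404 HT calls with 2152 and 2151 HS calls, so the share of HT among calls was 39.6% and 39.5% instead of 46.1%. With the replicate block the counts were 1746 and 2052, and with the slide as a block 1774 and 2053. The 6 arrays at 22 °C alone gave 1515 and 1839, and their paired fit 1422 and 1761. The methods' t-test after adjustment gave 1194 and 1538. Leaving out 1 array gave 1566 to 1658 HT calls and 1868 to 2092 HS calls. The contrasts between temperatures moved most. Against 15 °C, 2 probes were called with either other scaling, 54 with a slide block, 75 with the slide as a random block and 6 to 30 without 1 array. Against 27 °C the counts were 0 with either other scaling, 4 with normexp, 4 with the random block and 2 to 17 without 1 array. The cause of these shifts was not tested. Of the 191 named called probes, 119 kept their call under every alternative run and 72 lost it under at least 1, 33 of them with normexp, 47 without 1 array and 42 in the methods' t-test after adjustment. The replicate block in the fit of all arrays ended none of the 191 calls, while the paired fit of the 6 arrays alone ended 24. Normexp moved 78 of the 191 differences by over 1.5-fold. Signals near background limit the probes seen in 1 line.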

Other observations

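The dihydroflavonol reductase gene AT5G42800 (DFR), which acts in anthocyanin synthesis, differed by 1.17 on the log2 scale at 22 °C (adjusted p = 0.012, limma) and by 3.74 at 15 °C. The change of −2.57 had an adjusted p of 0.068, and without HT22 replicate 1 the 22 °C difference was 1.03 (adjusted p = 0.055). A second probe of the gene differed by 1.13 at 22 °C (adjusted p = 0.062). The peroxisomal small heat shock protein gene AT5G37670 had a probe that was below background in both lines at 22 °C, and its line difference changed by 1.49 between 27 °C and 22 °C with an adjusted p of 0.056.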
